A study of Sus scrofa with 9 samples.

Results

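Ribosomal protein genes and translation factor genes were followed in nascent RNA from pig myocardium. A gene belonged to the set where its RefSeq accession carried a pig symbol starting with RPL or RPS and a digit, or with RPLP (ribosomal proteins), or with EIF or EEF and a digit (translation factors). The ribosomal S6 kinase genes and the EIF2AK kinase genes were left out. The position with the longest annotated span stood for each gene, and a mean of at least 0.5 RPKM over all libraries was required. RPKM are reads divided by the length of the span in kilobases, introns included, and scaled to the total of the library. The rule found 62 genes by symbol, of which 55 were measured, 40 ribosomal protein genes and 15 factors, among 1987 measured genes in all. Of the 44 ribosomal protein genes by symbol, the 4 that were not measured (RPL7, RPL10, RPL23 and RPL37) have their longest position on an unplaced scaffold. All 548 scaffold positions of the table are listed at 0, so these genes were not analysed here. Of the 18 factors, EIF6 lies on a scaffold too, and EIF4E2 and EIF1AY held reads but stayed below the filter. At the edge of the filter, EEF1E1 averaged 0.532 RPKM and was kept, and EIF4E2 averaged 0.373 RPKM and was not.

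The samples come from 3 female farm pigs in which a coil blocked the distal left anterior descending coronary artery for 24 hours. Each pig gave 1 healthy, 1 border zone and 1 ischemic sample, so the groups hold 3 libraries each, and the healthy tissue also comes from a heart with an occluded artery. The tissue was digested with collagenase, nuclei were extracted, and transcribing polymerases were let run on in the presence of a bromine-labelled nucleotide (GRO-seq, global run-on sequencing). The labels give no age, strain or distance from the occlusion for a sample.

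The ribosome reads messenger RNA with a small subunit, which decodes, and a large subunit, which joins the amino acids, and each is built of ribosomal RNA and many small proteins. Initiation factors bring the small subunit and the messenger to the start codon, and elongation factors deliver aminoacyl-tRNA and move the ribosome along. In mammals, messengers of ribosomal proteins and of several factors share a pyrimidine-rich start and are controlled together at translation through mTOR, and their genes are targets of MYC. GRO-seq sees none of that translational control, since it records polymerases on the gene. The introns of many of these genes (RPL13A, RPL3, RPS12, RPS20, EIF4A1, EIF4A2 and EEF1B2 among them) hold small nucleolar RNA genes in mammals, and reads from such introns count towards the span. Near-identical processed copies of ribosomal protein genes are spread over mammalian genomes, and the sources used here do not say how reads with several positions were counted, so the level of any single gene is uncertain to that extent.

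Library totals and reads were recovered from the RPKM values. The totals lay between 2730083 and 6531658 reads in healthy, 2187977 and 7005976 in border zone and 883656 and 2134087 in ischemic myocardium. The ischemic values thus rest on fewer reads. A median ribosomal protein gene held 55.5 to 99 reads in a healthy library, 54 to 155 in a border zone library and 31.5 to 94.5 in an ischemic library. Heart muscle markers were present and summed to 321 to 543 RPKM over 10 genes in healthy and 70.3 to 203 RPKM in ischemic libraries. CKM, also on a scaffold, was at 0 throughout. Markers of macrophages and monocytes summed to 0.992 to 2.36 RPKM over 9 genes in healthy and 37.5 to 47 RPKM in ischemic libraries, with 7 of 7 measured genes higher and CD163, on a scaffold, at 0. Neutrophil markers summed to 0.0813 to 0.323 RPKM over 5 genes in healthy and 14.1 to 30.2 RPKM in ischemic libraries, and S100A8, S100A9 and S100A12 held no read in healthy libraries. Of the 4 measured neutrophil markers 3 rose in ischemic myocardium, against 18.5% of all tested positions. S100A9 did not pass (adjusted p = 0.152 in limma) and held no read in ischemic replicate 2. CXCL8, which lies on a scaffold, was at 0 in every library. Of the measured heart muscle markers 6 of 9 fell in ischemic myocardium, against 9.1% of all tested positions. In other lists 4 of 5 endothelial, 4 of 7 fibroblast, 1 of 4 lymphocyte, 1 of 3 smooth muscle and 1 of 2 erythroid markers rose, against 18.5%. Of the cell cycle genes 0 of 4 passed the filter. The other way, without passing, went NPPA (log2 fold change 0.66), DCN (-0.57), LUM (-0.63), DES (-0.52) and TFRC (-0.79). Many calls were lost without single libraries, and those of MYL2 and TNNT2 held in 1 of the 9 such fits. With the libraries set to equal medians the calls of NOS3, PECAM1, COL1A2 and COL3A1 were lost (adjusted p of 0.0508 to 0.122 in limma). The markers that passed moved with the ischemic zone, as do the values described here, and their part in the results was not tested. In bulk tissue, a different number of cells of a type and a different amount of RNA per cell cannot be told apart.

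In ischemic against healthy myocardium, 18 of the 40 measured ribosomal protein genes rose at an adjusted p under 0.05 (limma over all tested positions) and 0 fell. Among all 2384 tested positions 18.5% were called higher and 9.1% lower. The log2 fold change was above 0 for 40 of 40 ribosomal protein genes, against 58.2% of all positions, and its median was 0.97, against 0.21 over all positions. At an unadjusted p under 0.05, 28 ribosomal protein genes and 7 factors were higher, against 27.1% of all positions. In 29 of the 40 genes every ischemic library lay above every healthy library, which held for 28.4% of all positions. The count depended on the scaling of the libraries and on single libraries. It was 11 with the libraries set to equal medians, where 14.1% of all positions were called higher, and 5 with quantile normalization, where 10.4% were, so that the 5 of 40 genes then lay near the share of all positions. It was 8 without healthy replicate 2, 7 without healthy replicate 3, 8 without ischemic replicate 1 and 11 without ischemic replicate 3. In these 4 fits 9.73%, 11.7%, 11.1% and 12.8% of all positions were called higher. The count rose to 26 by limma-voom on the recovered reads, to 23 without healthy replicate 1 and to 23 of 39 with a filter at 2 RPKM. There 22.3%, 15.2% and 27.9% of all positions were called higher. With the filter at 2 RPKM the median log2 fold change was 0.97 over the 39 genes and 0.46 over all positions. The log2 fold change stayed above 0 for 39 of 40 genes with equal medians and for 37 of 40 with quantile normalization, with medians of 0.75 and 0.49. With equal medians the calls of RPL10A, RPL15, RPL22, RPL26, RPLP0, RPS12 and RPS3A were lost, and with quantile normalization those of RPL3, RPL14, RPLP2, RPS20 and RPS23 were left.

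The medians followed the zones. The median over the 40 ribosomal protein genes was 7.50, 4.54 and 4.71 RPKM in healthy replicates 1 to 3, 7.84, 7.63 and 7.20 RPKM in border zone replicates and 12.9, 11.7 and 12.02 RPKM in ischemic replicates. All 3 ischemic medians lay above the other 6, and healthy replicate 1 lay beside the border zone. Group means ran from healthy through border zone to ischemic in 35 of the 40 genes, against 39.1% of all positions. As a share of all reads, the 40 genes made up 0.123%, 0.0879% and 0.0759% in healthy replicates 1 to 3, 0.135%, 0.117% and 0.130% in border zone replicates and 0.213%, 0.194% and 0.193% in ischemic replicates. The 15 factors had medians of 2.28, 1.92 and 1.81 RPKM in healthy, 2.54, 2.28 and 1.95 RPKM in border zone and 2.63, 2.33 and 3.57 RPKM in ischemic replicates. Their medians were close together, and ischemic replicate 3 stood above the rest. Over all tested positions the median was 1.23, 1.16 and 1.18 RPKM in healthy, 1.55, 1.42 and 1.36 RPKM in border zone and 1.62, 1.27 and 1.32 RPKM in ischemic replicates.

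**Figure D1:**
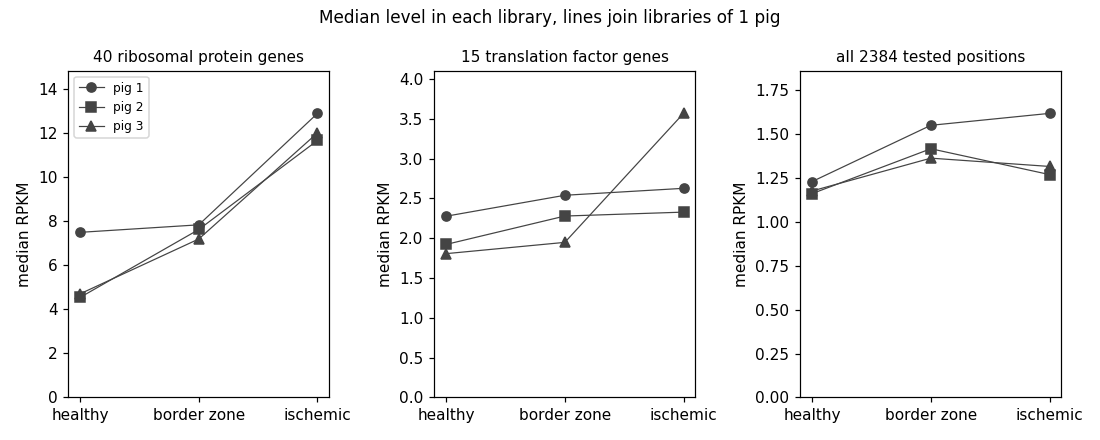
Median RPKM (vertical axes, from 0, a different scale in each panel) in healthy, border zone and ischemic myocardium for the 40 ribosomal protein genes, the 15 translation factor genes and all 2384 tested positions; each marker is 1 library and lines join the libraries of 1 pig. The ribosomal protein median was 12.9, 11.7 and 12.02 RPKM in the ischemic libraries, above the other 6, and the healthy library of pig 1, at 7.50 RPKM, lay near the border zone.

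The healthy libraries differed among themselves. Healthy replicate 1 was the highest of the 3 in 33 of the 40 ribosomal protein genes and in 10 of the 15 factors, against 44.3% of all tested positions. The median ratio of the highest to the lowest healthy library was 1.75 for ribosomal protein genes, against 1.40 among border zone and 1.55 among ischemic libraries. Within pig 1, the median log2 difference between ischemic and healthy myocardium was 0.71 over the ribosomal protein genes, with 38 of 40 higher in the ischemic sample. It was 1.11 in pig 2, with 38 of 40 higher, and 1.32 in pig 3, with 39 of 40 higher. All positions had medians of 0.42, 0.11 and 0.17 in pigs 1 to 3, so the excess over all positions was smallest in pig 1. The share of reads at ribosomal RNA positions was 2.24%, 1.06% and 0.621% in healthy replicates 1 to 3, 1.36%, 0.733% and 1.62% in border zone replicates and 2.00%, 4.39% and 3.85% in ischemic replicates. Healthy replicate 1 was thus the highest healthy library in this share as well, and the part of the ribosomal RNA share in the results was not tested.

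**Figure D2:**
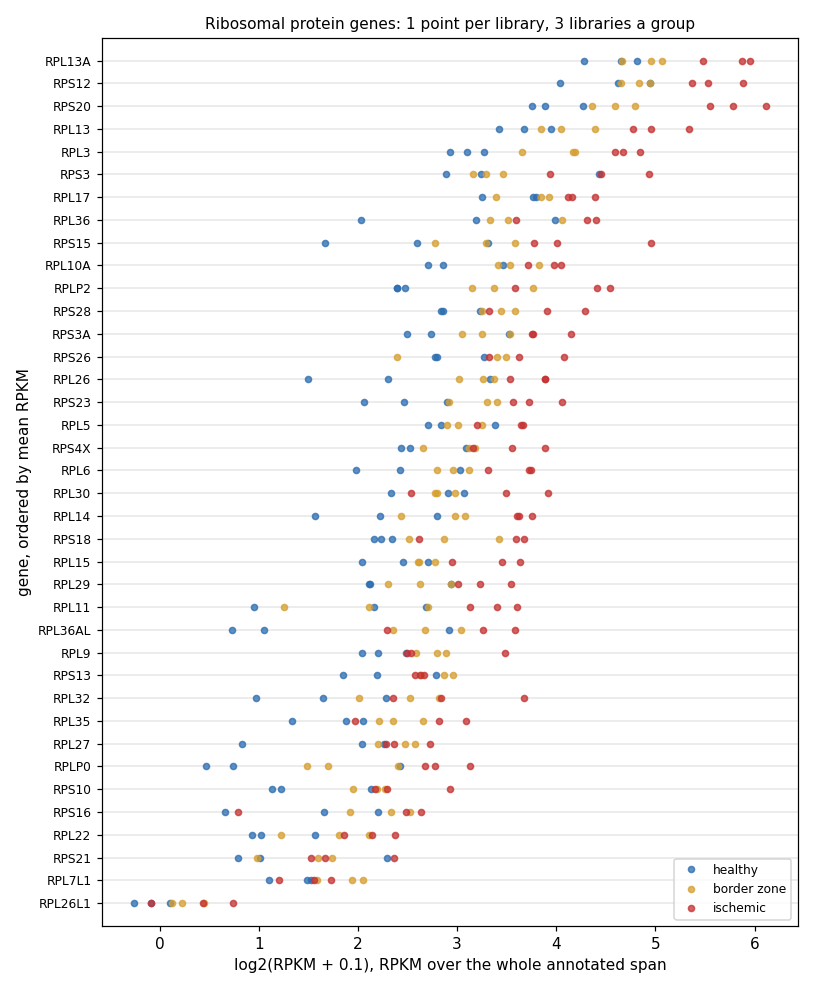
Level of 38 of the 40 measured ribosomal protein genes in all 9 libraries, as log2(RPKM + 0.1) on the horizontal axis, with genes ordered by mean RPKM and 1 point per library coloured by group. Ischemic points lie to the right of all healthy points in 27 of the 38 genes drawn, and levels run from RPL26L1 (mean of 1.06 RPKM) to RPL13A (36.3 RPKM).

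Among proteins of the large subunit, 11 of 24 measured genes rose in ischemic myocardium and 0 fell, against 18.5% of all positions called higher. Their median log2 fold change was 0.99. RPL3 (NM_001244063, susScr3 chromosome 5 from 6216929 to 6223999), which reaches towards the site where peptide bonds form, measured 9.58, 8.46 and 7.51 RPKM in healthy, 18.2, 12.5 and 17.8 RPKM in border zone and 25.5, 28.6 and 24.0 RPKM in ischemic replicates. The 3 zones did not overlap in RPL3, and it rose 3.04-fold in ischemic myocardium (log2 fold change 1.60 ± 0.24, ± SE, adjusted p = 0.00286). RPLP2 (NM_001244866, chromosome 2 from 164530 to 166453), an acidic protein of the stalk that recruits elongation factors, measured 5.14, 5.46 and 5.17 RPKM in healthy, 13.5, 8.76 and 10.2 RPKM in border zone and 23.1, 11.9 and 21.2 RPKM in ischemic replicates. Its healthy libraries were nearly equal, all 6 others were higher, and it rose 3.37-fold (1.75 ± 0.30, adjusted p = 0.00516). RPL13A (NM_001244068, chromosome 6 from 50293762 to 50297722), which also takes part in translational silencing after interferon, measured 25.1, 27.9 and 19.3 RPKM in healthy, 30.9, 25.3 and 33.5 RPKM in border zone and 44.5, 58.7 and 61.7 RPKM in ischemic replicates. It had the highest mean of the ribosomal protein genes and rose 2.28-fold (1.19 ± 0.26, adjusted p = 0.0129). With quantile normalization RPL13A had an adjusted p of 0.212. RPL13 measured 15.3, 10.6 and 12.6 RPKM in healthy, 16.5, 14.3 and 20.8 RPKM in border zone and 27.2, 30.9 and 40.3 RPKM in ischemic replicates. The ischemic libraries of RPL13 stood above the other 6, and it rose 2.53-fold (adjusted p = 0.00943, and 0.0842 with quantile normalization). RPL14 measured 6.85, 2.86 and 4.58 RPKM in healthy, 8.35, 5.30 and 7.76 RPKM in border zone and 12.3, 13.4 and 12.05 RPKM in ischemic replicates. Its ischemic libraries lay close together above all others, and it rose 2.76-fold (adjusted p = 0.0157).

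Among proteins of the small subunit, 7 of 16 measured genes rose and 0 fell, against 18.5% of all positions called higher. Their median log2 fold change was 0.97. RPS20 (NM_001129954, chromosome 4 from 82679936 to 82681176), a protein of the head of the subunit, measured 19.2, 13.4 and 14.7 RPKM in healthy, 24.1, 20.5 and 27.6 RPKM in border zone and 69.2, 46.7 and 54.8 RPKM in ischemic replicates. The zones of RPS20 did not overlap, and it rose 3.58-fold (log2 fold change 1.84 ± 0.26, adjusted p = 0.0025), the smallest adjusted p among the 55 genes. RPS23 (NM_213764, chromosome 2 from 92675140 to 92676784), which lies at the decoding centre and bears on accuracy, measured 7.35, 4.08 and 5.40 RPKM in healthy, 10.4, 7.47 and 9.73 RPKM in border zone and 13.1, 11.7 and 16.5 RPKM in ischemic replicates. Each zone of RPS23 lay above the one before it, and it rose 2.47-fold (1.31 ± 0.28, adjusted p = 0.0132). The 7 calls of RPL3, RPLP2, RPL13, RPL13A, RPL14, RPS20 and RPS23 held without any 1 of the 9 libraries.

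The other 11 ribosomal protein calls did not hold without every library, and 9 of them are described here. RPS12 measured 30.7, 24.6 and 16.3 RPKM in healthy, 30.6, 25.1 and 28.5 RPKM in border zone and 46.1, 59.0 and 41.3 RPKM in ischemic replicates. Healthy and border zone libraries of RPS12 overlapped, the ischemic ones did not reach them, and it rose 2.09-fold (adjusted p = 0.0293). RPS15, a neighbour of the decoding site, measured 9.80, 3.08 and 5.93 RPKM in healthy, 9.72, 11.9 and 6.76 RPKM in border zone and 31.0, 13.6 and 15.9 RPKM in ischemic replicates. Ischemic replicate 1 stood far above the rest in RPS15, which rose 3.30-fold (adjusted p = 0.0311). RPS3A measured 11.4, 6.58 and 5.53 RPKM in healthy, 11.5, 8.16 and 9.42 RPKM in border zone and 13.5, 17.6 and 13.4 RPKM in ischemic replicates. The lowest ischemic library of RPS3A was little above the highest of the other zones, and it rose 1.96-fold (adjusted p = 0.0482).

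On the large subunit, RPLP0, the base of the stalk, measured 5.25, 1.57 and 1.28 RPKM in healthy, 2.69, 3.16 and 5.19 RPKM in border zone and 8.68, 6.29 and 6.76 RPKM in ischemic replicates. It rose 3.15-fold (adjusted p = 0.0418, and 0.0512 with the pig as a block) on 47 reads over the healthy and 53 over the ischemic libraries. RPL6 measured 8.04, 5.29 and 3.86 RPKM in healthy, 8.58, 7.67 and 6.86 RPKM in border zone and 13.3, 13.2 and 9.83 RPKM in ischemic replicates. RPL26, which can also bind the p53 messenger, measured 9.96, 2.72 and 4.83 RPKM in healthy, 9.51, 8.02 and 10.3 RPKM in border zone and 14.7, 11.5 and 14.7 RPKM in ischemic replicates. The healthy libraries of RPL26 spread more than its ischemic ones. RPL15 measured 5.38, 6.43 and 4.01 RPKM in healthy, 6.74, 6.02 and 5.98 RPKM in border zone and 7.63, 12.3 and 10.8 RPKM in ischemic replicates. RPL10A measured 10.9, 7.15 and 6.41 RPKM in healthy, 11.5, 10.5 and 14.1 RPKM in border zone and 16.5, 13.1 and 15.7 RPKM in ischemic replicates. Border zone and ischemic libraries of RPL10A overlapped. RPL22, an RNA-binding protein of the large subunit, measured 2.87, 1.94 and 1.81 RPKM in healthy, 4.22, 3.41 and 2.24 RPKM in border zone and 5.09, 3.52 and 4.30 RPKM in ischemic replicates. The rises in ischemic myocardium were 2.17-fold for RPL6, 2.63-fold for RPL26, 1.93-fold for RPL15 and for RPL22, and 1.88-fold for RPL10A, with adjusted p between 0.027 (RPL6) and 0.0469 (RPL22). Without healthy replicate 1 the call of RPL15 was lost (adjusted p of 0.0631). Of these 9 calls, all but RPL15 were lost without healthy replicate 2 (0.0695 to 0.137), and all 9 without healthy replicate 3 (0.0726 to 0.143). Without ischemic replicate 1 the same 8 as without healthy replicate 2 were lost (0.0676 to 0.125). Without ischemic replicate 2, 6 were lost (RPL6, RPL15, RPL26, RPLP0, RPS3A and RPS12, 0.0546 to 0.105), and without ischemic replicate 3, 7 (RPL10A, RPL15, RPL22, RPL26, RPLP0, RPS3A and RPS15, 0.057 to 0.0965). Leaving out a border zone library changes this comparison through the shared spread only, and it ended the calls of RPL26, RPLP0 and RPS3A without any 1 of the 3 (0.0501 to 0.0698), of RPL10A without replicates 1 and 2 (0.0574 and 0.0514) and of RPL22 without replicate 2 (0.0681).

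The other 22 ribosomal protein genes did not pass, though their log2 fold changes were above 0 and ran from 0.13 (RPL7L1) to 1.48 (RPL36AL). With the pig as a block 7 of them passed, namely RPL11 (adjusted p = 0.0169), RPL32 (0.0174), RPL35 (0.0245), RPS4X (0.0248), RPS28 (0.0273), RPS10 (0.0275) and RPS18 (0.0436). That fit called 24 of the 40 genes higher, against 21.3% of all positions. RPL11, which with RPL5 binds MDM2 when ribosome assembly is disturbed, measured 6.34, 4.37 and 1.84 RPKM in healthy, 6.44, 4.23 and 2.28 RPKM in border zone and 10.4, 12.1 and 8.63 RPKM in ischemic replicates. The healthy and border zone values of RPL11 were nearly the same pig by pig, and its log2 fold change was 1.44 ± 0.50 (adjusted p = 0.0628). Its partner RPL5 had 0.53 ± 0.26 (adjusted p = 0.17), with healthy replicate 1 inside the ischemic range. RPS13 measured 6.80, 4.48 and 3.50 RPKM in healthy, 6.14, 7.70 and 7.18 RPKM in border zone and 5.86, 6.26 and 6.06 RPKM in ischemic replicates. Its ischemic libraries were almost equal and lay within the healthy range (0.35 ± 0.27, adjusted p = 0.372). The lowest depth of a ribosomal protein gene was that of RPS21, with 8, 7 and 3 reads in the ischemic libraries, and its log2 fold change of 0.49 ± 0.44 (adjusted p = 0.442) was not detectable as a difference at this depth. The paralogs RPL26L1 and RPL7L1 had log2 fold changes of 0.44 ± 0.26 (adjusted p = 0.231) and 0.13 ± 0.24 (adjusted p = 0.727), against 1.39 ± 0.42 for RPL26. RPL26L1 was also the gene with the lowest mean level of the 40, at 1.06 RPKM, and RPL7L1 averaged 2.94 RPKM.

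**Figure D3:**
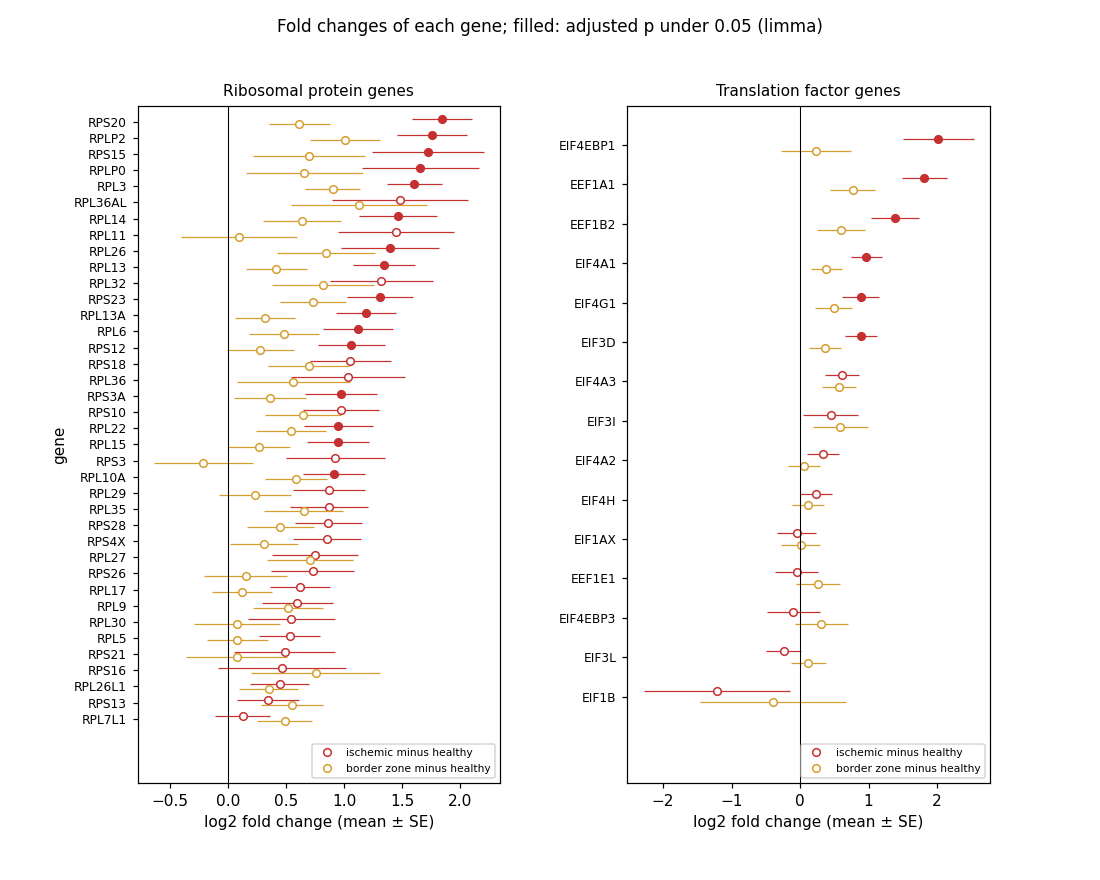
Log2 fold change (horizontal axis, ± SE) of 38 ribosomal protein genes (left) and 15 translation factor genes (right) for ischemic minus healthy (red) and border zone minus healthy (yellow), with filled points at an adjusted p under 0.05 in limma. In ischemic myocardium 16 of the 38 ribosomal protein genes and 6 of 15 factors are filled, all above 0, and no border zone point is filled.

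Elongation factor genes by symbol showed 2 rises among 3 measured genes, against 18.5% of all positions called higher. EEF1A1 (NM_001097418, chromosome 1 from 103474791 to 103477892), the GTPase that brings aminoacyl-tRNA to the ribosome, measured 40.3, 18.9 and 19.7 RPKM in healthy, 42.2, 39.1 and 45.2 RPKM in border zone and 102, 88.5 and 73.0 RPKM in ischemic replicates. It had the highest mean of the 55 genes, healthy replicate 1 lay in the border zone range, and every ischemic library stood above all others. EEF1A1 rose 3.51-fold (log2 fold change 1.81 ± 0.33, adjusted p = 0.00629), the one factor call that held without any 1 of the 9 libraries and with both other scalings. EEF1B2 (NM_001243524, chromosome 15 from 121000537 to 121004164), which recharges EEF1A1 with GTP, measured 6.67, 5.15 and 3.59 RPKM in healthy, 9.94, 6.93 and 6.30 RPKM in border zone and 16.0, 8.94 and 15.9 RPKM in ischemic replicates. Ischemic replicate 2 of EEF1B2 lay within the border zone range, and it rose 2.61-fold against healthy myocardium (1.39 ± 0.34, adjusted p = 0.0211). The call of EEF1B2 was lost without healthy replicates 2 and 3 (adjusted p of 0.0579 and 0.0666), without ischemic replicates 1 and 3 (0.0656 and 0.0619) and with quantile normalization (0.0619). EEF1E1, a scaffold protein of the tRNA synthetase complex in spite of its symbol, had -0.05 ± 0.32 (adjusted p = 0.92), at 0.508 ± 0.175 RPKM in healthy and 0.476 ± 0.0834 RPKM in ischemic myocardium (mean ± SD, n = 3 each).

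Among the 12 measured initiation factor genes and their binding proteins, 4 rose in ischemic myocardium and 0 fell, with a median log2 fold change of 0.39. With the elongation factors this makes 6 of 15 factor genes higher, against 18.5% of all positions, and the median over the 15 was 0.45, against 0.21. The log2 fold change was above 0 for 10 of the 15 factors, against 58.2% of all positions. EIF4A1 (NM_001100196, chromosome 12 from 55300310 to 55305775), the helicase that opens the leader of the messenger, measured 15.0, 17.1 and 13.8 RPKM in healthy, 20.6, 17.3 and 22.2 RPKM in border zone and 26.0, 29.7 and 34.4 RPKM in ischemic replicates. The 3 zones of EIF4A1 did not overlap, and it rose 1.95-fold (log2 fold change 0.96 ± 0.23, adjusted p = 0.0168). Its close paralog EIF4A2 measured 30.5, 32.6 and 21.6 RPKM in healthy, 27.8, 29.6 and 29.0 RPKM in border zone and 33.9, 38.5 and 33.0 RPKM in ischemic replicates. EIF4A2 had the second highest mean of the factors and did not pass (0.33 ± 0.23, adjusted p = 0.325), though its ischemic libraries lay just above the healthy ones. Whether the 2 paralogs differed in their change was not tested. EIF4A3, the related helicase of the exon junction complex, had 0.61 ± 0.25 (adjusted p = 0.101), with 0.872 ± 0.189 RPKM in healthy and 1.37 ± 0.143 RPKM in ischemic myocardium.

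EIF4G1 (NM_001246253, chromosome 13 from 131644559 to 131665146), the scaffold that joins the cap-binding protein, the helicase and the small subunit, measured 3.90, 3.49 and 3.24 RPKM in healthy, 5.44, 5.47 and 4.20 RPKM in border zone and 9.26, 6.34 and 4.89 RPKM in ischemic replicates. Ischemic replicate 3 of EIF4G1 lay within the border zone range, and the gene rose 1.85-fold against healthy myocardium (log2 fold change 0.88 ± 0.27, adjusted p = 0.0418). EIF3D (NM_001244723, chromosome 5 from 8895436 to 8911620), a subunit of the eIF3 complex that can itself bind the cap, measured 1.52, 1.62 and 1.81 RPKM in healthy, 2.54, 1.98 and 1.95 RPKM in border zone and 3.45, 2.33 and 3.78 RPKM in ischemic replicates. Healthy libraries were the lowest of EIF3D, and it rose 1.85-fold (0.88 ± 0.23, adjusted p = 0.0249). The other measured eIF3 subunits did not pass, with 0.45 ± 0.40 for EIF3I (adjusted p = 0.44) and -0.24 ± 0.25 for EIF3L (adjusted p = 0.514). EIF4H, a cofactor of the helicase, had 0.23 ± 0.24 (adjusted p = 0.502), and EIF1AX, which helps the small subunit scan for the start codon, had -0.05 ± 0.28 (adjusted p = 0.915). The level of EIF1AX was 1.78 ± 0.46 RPKM in healthy myocardium, 1.76 ± 0.245 RPKM in the border zone and 1.74 ± 0.552 RPKM in the ischemic zone (mean ± SD, n = 3 each). Its Y-chromosome copy EIF1AY held 3 reads over all 9 libraries of these female pigs, 1 in healthy replicate 1 and 2 in healthy replicate 3. EIF1B, a paralog of the start codon selection factor, was low and uneven, with 2.07, 1.52 and 0.664 RPKM in healthy, 1.95, 1.05 and 0.397 RPKM in border zone and 1.63, 1.14 and 0 RPKM in ischemic replicates. The last value is 0 of 883656 reads, which allows up to 1.47 RPKM (3 reads), and its fitted log2 difference of -1.22 ± 1.07 did not pass (adjusted p = 0.434).

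EIF4EBP1 (NM_001244225, chromosome 15 from 55557994 to 55560847) encodes a repressor that holds the cap-binding protein away from EIF4G1 until mTOR phosphorylates it. It measured 1.16, 0.614 and 0.537 RPKM in healthy, 2.17, 0.600 and 0.481 RPKM in border zone and 2.63, 3.69 and 3.57 RPKM in ischemic replicates. The reads behind these values were 9, 6 and 10 in healthy, 22, 12 and 3 in border zone and 16, 12 and 9 in ischemic replicates. Border zone replicates 2 and 3 of EIF4EBP1 lay with the healthy libraries, border zone replicate 1 lay between the zones, and all ischemic libraries were higher. The gene rose 4.05-fold against healthy myocardium (log2 fold change 2.02 ± 0.51, adjusted p = 0.0226), the largest fold change of the 55. EIF4EBP3, a related repressor, measured 2.73 ± 0.458 RPKM in healthy myocardium, 3.45 ± 0.876 RPKM in the border zone and 2.76 ± 1.45 RPKM in the ischemic zone (mean ± SD, n = 3 each). Its log2 fold change was -0.10 ± 0.39 (adjusted p = 0.872). For the initiation factor genes that rose, the calls of EIF3D and EIF4G1 were lost without healthy replicate 1 (adjusted p of 0.068 each), of EIF3D, EIF4EBP1 and EIF4G1 without healthy replicate 2 (0.0735, 0.0717 and 0.107) and of all 4 without healthy replicate 3 (0.0536 to 0.113). Without ischemic replicate 1 those of EIF3D and EIF4G1 were lost (0.0706 and 0.107), without ischemic replicate 2 that of EIF4G1 (0.0648) and without ischemic replicate 3 those of EIF3D, EIF4A1 and EIF4EBP1 (0.0699, 0.0555 and 0.0587). The call of EIF4G1 also needed each border zone library (0.0524 to 0.0611). In all, 6 factor calls became 1 with quantile normalization, where EEF1A1 was left and EIF4EBP1 had an adjusted p of 0.075. They became 4 with equal medians, which ended the calls of EIF4A1 (0.073, and 0.426 with quantile normalization) and EIF4G1 (0.0585), 2 without healthy replicate 2, 1 without healthy replicate 3, 3 without ischemic replicate 1 and 2 without ischemic replicate 3. The shares of all positions called higher were 10.4% with quantile normalization, 14.1% with equal medians and, without these libraries in turn, 9.73%, 11.7%, 11.1% and 12.8%. The 1 of 15 factors left with quantile normalization or without healthy replicate 3 is a share below that of all positions.

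**Figure D4:**
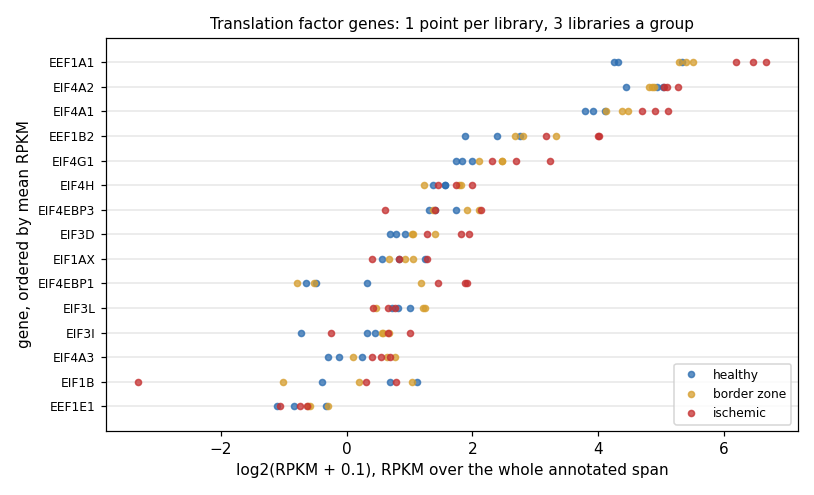
Level of each of the 15 measured translation factor genes in all 9 libraries, as log2(RPKM + 0.1) on the horizontal axis, with genes ordered by mean RPKM and 1 point per library coloured by group. EEF1A1 leads with 102, 88.5 and 73.0 RPKM in ischemic libraries, the ischemic points of EIF4EBP1 lie apart from the healthy ones, and the lowest point of EIF1B is the ischemic library with 0 reads.

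In the border zone, 0 of the 40 ribosomal protein genes and 0 of the 15 factors passed against healthy myocardium in limma, while 5.79% of all positions were called higher. At an unadjusted p under 0.05, 4 ribosomal protein genes and 1 factor were higher, against 17.8% of all positions. By limma-voom on the recovered reads 1 ribosomal protein gene (RPL3) and 0 factors passed, against 10.8% of all positions higher. The log2 fold change was above 0 for 39 of 40 ribosomal protein genes and 14 of 15 factors, against 63.9% of all positions, with medians of 0.53 and 0.31 against 0.22. With equal medians it was above 0 for 30 of 40 and 9 of 15, and with quantile normalization for 33 of 40 and 8 of 15, while the median over all positions moved to -0.03 and -0.11. Border zone libraries lay above healthy libraries without overlap in 10 ribosomal protein genes and 4 factors, a share of 25% and 26.7% against 25.7% of all positions. RPL3 had the smallest adjusted p, at a log2 difference of 0.90 ± 0.24 (adjusted p = 0.0665, and 0.0133 by limma-voom), followed by RPLP2 with 1.00 ± 0.30 (adjusted p = 0.104, and 0.0452 without ischemic replicate 2). RPS3 had the lowest value of the ribosomal protein genes, at -0.22 ± 0.42 (adjusted p = 0.829), with 21.4, 9.34 and 7.33 RPKM in healthy, 10.9, 9.66 and 8.82 RPKM in border zone and 30.5, 21.8 and 15.3 RPKM in ischemic replicates. The healthy libraries of RPS3 spread around the border zone libraries, which were close to one another.

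Between ischemic myocardium and the border zone, 0 ribosomal protein genes and 0 factors passed in limma, as 0.168% of all positions were called higher. Unadjusted, 11 ribosomal protein genes and 4 factors were higher at a p under 0.05 and 0 were lower, against 6.42% of all positions higher. By limma-voom RPS20 (adjusted p = 0.0176), RPL13A (0.0452) and EEF1A1 (0.0359) passed as higher in ischemic myocardium, as did 1.13% of all positions. The median log2 fold change was 0.55 over the ribosomal protein genes and 0.12 over the factors, against -0.04 over all positions. The ischemic libraries lay above the border zone libraries without overlap in 18 of the 40 ribosomal protein genes, against 8.56% of all positions. EIF4EBP1 had the largest value, 1.79 ± 0.51 (adjusted p = 0.148). RPL11 followed with 1.35 ± 0.50 and RPS20 with 1.23 ± 0.26 (adjusted p = 0.0775 for RPS20). These comparisons share libraries with the one of ischemic against healthy myocardium, so their values are not independent.

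RPKM averages the reads of a gene over its span, and the span differed between the classes. Ribosomal protein genes spanned 1063 to 9371 bp with a median of 3271 bp, factors 1837 to 27912 bp with a median of 9197 bp, and all tested positions had a median of 11456 bp. All 55 genes have introns. Among the 881 tested positions of 1 to 10 kb, which hold all 40 ribosomal protein genes, 21.1% were called higher in ischemic myocardium and the median log2 fold change was 0.49, above the 0.21 of all positions and below the 0.97 of the ribosomal protein genes. The 8 factors of 1 to 10 kb had a median of 0.71 with 4 called higher, and the 7 longer ones had 0.23 with 2 called higher, against 0.12 and 18.7% for all positions of 10 to 100 kb. Across the 40 ribosomal protein genes, which share the same libraries, the log2 fold change had a Pearson r of -0.35 with the log10 span and 0.40 with the mean log2 level. The r with span was -0.47 for the large and -0.21 for the small subunit, and 0.0096 over all tested positions. Over all tested positions the median log2 fold change rose and then fell with span, which such an r does not show. It was -0.21 under 1 kb, 0.49 at 1 to 10 kb, 0.12 at 10 to 100 kb and -0.07 over 100 kb. Span and level of the 40 genes had an r of -0.28 with each other, and their parts were not separated. The longer ribosomal protein genes, RPL26L1 and RPL7L1 among them, tended to the smaller values, while RPL3 at 7070 bp had 1.60. RPL22 at 9201 bp passed the threshold at 0.95, just below the median of 0.97.

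**Figure D5:**
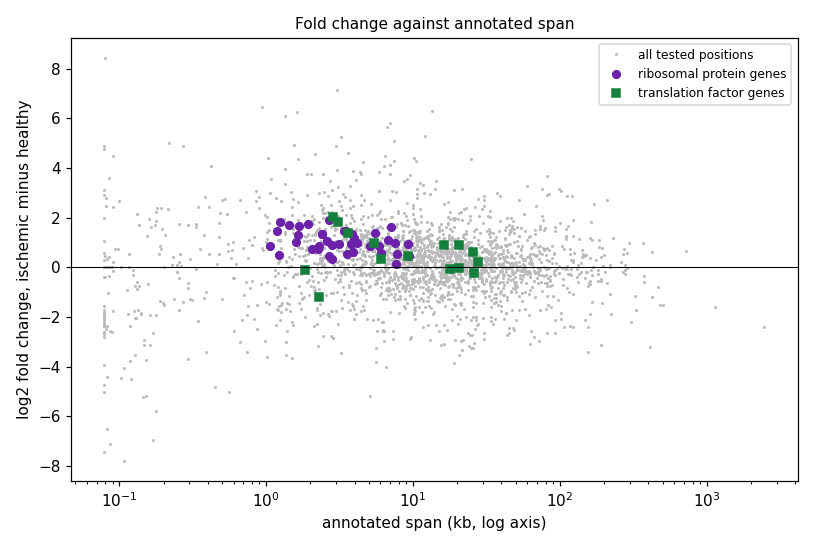
Log2 fold change of ischemic minus healthy (vertical axis) against the annotated span in kb (horizontal log axis) for all 2384 tested positions (grey), the 40 ribosomal protein genes (purple circles) and the 15 translation factor genes (green squares). The ribosomal protein genes lie between 1063 and 9371 bp and above 0 throughout, and the factors reach 27912 bp and lie on both sides of 0.

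Some of these genes have a further position in the table. RPL13A and EIF4H are listed under 2 accessions with the same coordinates and the same values. RPL7 has a second position of 179 bp on chromosome 10 (38814267 to 38814446) and RPL10 one of 378 bp on chromosome 15 (81148830 to 81149208), both without an intron, so that span and exon length are the same there. The short RPL7 position measured 40.9, 11.4 and 8.55 RPKM in healthy, 20.5, 47.8 and 20.4 RPKM in border zone and 78.5, 83.2 and 63.2 RPKM in ischemic replicates. The reads behind these values were 20, 7 and 10 in healthy, 13, 60 and 8 in border zone and 30, 17 and 10 in ischemic replicates. This position is shorter than the 758 bp of exon at the longest RPL7 position, so it does not stand for the whole gene. It was higher in ischemic myocardium (log2 fold change 2.22 ± 0.59, adjusted p = 0.0268), a call lost without healthy replicate 2 or 3, without any 1 ischemic library (0.0539 to 0.0872 over these) and with quantile normalization (0.0803). The short RPL10 position measured 26.2, 9.27 and 4.86 RPKM in healthy and 12.4, 37.1 and 38.9 RPKM in ischemic replicates, which overlap (adjusted p = 0.208). It held 27, 12 and 12 reads in healthy and 10, 16 and 13 in ischemic replicates. RPS3 is listed over 3782 bp and again over 1317 bp on the other strand of chromosome 9 (10632287 to 10633604). The shorter position was higher in ischemic myocardium (1.86 ± 0.41, adjusted p = 0.014), a call lost without healthy replicate 2 (0.0519) and with quantile normalization (0.0925). The longer one did not pass (0.92 ± 0.42, adjusted p = 0.141), with healthy replicate 1 inside its ischemic range. The longer RPS3 position also lies within the 460146 bp span listed for TIGD4 on the opposite strand, and the sources used here do not say whether the counting used strand, so reads of the 2 cannot be told apart.

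Other genes of the pathway were read from fixed lists, whose counts stand against 18.5% of all positions called higher and a median of 0.21. Of 4 measured ribosome proteins and chaperones outside the symbol rule 1 rose in ischemic myocardium, RPSA, a small-subunit protein also known as the laminin receptor (log2 fold change 1.09 ± 0.26, adjusted p = 0.0173). The call of RPSA was lost without ischemic replicate 3 (0.0514) and with quantile normalization (0.132). Of 5 genes of ribosome biogenesis 2 rose, NOP56, a core protein of the box C/D particles that guide methylation of ribosomal RNA (1.06 ± 0.21, adjusted p = 0.00852), and DKC1, the pseudouridine synthase (1.49 ± 0.36, adjusted p = 0.0198). The call of DKC1 was lost without healthy replicate 1, healthy replicate 2 or ischemic replicate 1 (0.0515 to 0.0687). NOP56 had an adjusted p of 0.264 with quantile normalization. Of 16 genes of the mitochondrial ribosome and its factors 2 rose, MRPL55 (1.51 ± 0.25, adjusted p = 0.00412) and MRPL17 (1.24 ± 0.30, adjusted p = 0.0182), 0 fell, and the median was 0.13, so that both the share and the median lay below those of all positions. The call of MRPL17 was lost without healthy replicate 1, ischemic replicate 1 or ischemic replicate 3 (0.0532 to 0.056) and with quantile normalization (0.0575). Of 6 genes that control translation or answer its stress 4 rose, among them MYC (2.55 ± 0.40, adjusted p = 0.00341), the S6 kinase gene RPS6KA1 (2.97 ± 0.49, adjusted p = 0.00423) and DDIT4, an inhibitor of mTOR (1.75 ± 0.40, adjusted p = 0.0151, and 0.0768 with quantile normalization). The single measured genes of the remaining lists, DDX3X, an RNA helicase, and RARS, the arginyl-tRNA synthetase, did not pass (1.11, adjusted p = 0.0717, and 0.50, adjusted p = 0.432). In the border zone 1 of all these genes passed, RPS6KA1 (adjusted p = 0.0145).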

How the data were processed

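GRO-seq libraries were aligned with Bowtie to susScr3, per the submitters' processing notes. The deposited table gives RPKM, which the authors scaled by the annotated span and the library total, and the span and exon length in base pairs, another deposited unit, for 4882 positions. The Bowtie version and the handling of strand, duplicates and multi-position reads: not given in the sources used here. Library totals were inferred from these values, as the total that turns RPKM times span into whole reads. With totals fitted in this way, 100% of nonzero values came within 0.01 of whole reads. These recovered reads were tested with limma-voom as an alternative. Symbols came from RefSeq of Sscrofa11.1, used for names only, and 4793 positions matched. Positions averaging 0.5 RPKM or more (2384) were tested on log2(RPKM + 0.1) with limma 3.58.1 in R 4.3.3 (group as the term, all 9 libraries, eBayes with trend and robust, 2-sided, Benjamini-Hochberg adjustment within each of 3 comparisons, threshold 0.05). The fit was tested on simulated data. Fold changes are on this scale and understate those of low genes. Members and lists were chosen with earlier results of these data known. Genes named with all values are those past the threshold and the 5 highest of each class, and list genes the 3 with the smallest adjusted p; others named were chosen after their values were seen. Replicate numbers name the pig in every group, so they pair the samples. Deviations from group means correlated with r of -0.04 to 0.18 within and -0.16 to 0.08 between pigs. Alternatives were another pseudocount, filter, scaling, gene row, the pig as a block, limma-voom and each library left out. Plots used Python 3.11.15 and matplotlib 3.10.9. For 2 ribosomal protein genes single values are not reported here, and they enter the counts and medians only.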

Additional observations from a re-analysis of the deposited data

How the results depend on the processing

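Of the alternatives, those that moved a count of calls by over 1.5 times were these. For ischemic against healthy myocardium, 659 positions were called, 346 with a filter at 2 RPKM, and 362 to 698 with 1 library left out. Of the ribosomal protein genes 18 were called, 11 with equal medians, 5 with quantile normalization and 7 to 23 with 1 library left out. Of the factors 6 were called, 1 with quantile normalization and 1 to 5 with 1 library left out. For border zone against healthy myocardium, 143 positions were called, 48 with a pseudocount of 1, 76 with a filter at 2 RPKM, 95 with no filter, 90 with equal medians, 85 with quantile normalization, 296 by limma-voom and 36 to 174 with 1 library left out. Of the ribosomal protein genes 0 were called there, 1 by limma-voom and 0 to 1 with 1 library left out. For ischemic myocardium against the border zone, 27 positions were called, 10 with a pseudocount of 1, 3 with no filter, 8 with equal medians, 5 with quantile normalization, 92 by limma-voom and 0 to 39 with 1 library left out. By limma-voom 2 ribosomal protein genes and 1 factor were called there. With the pig as a block (replicate block) 24 ribosomal protein genes and 6 factors were called in ischemic myocardium, and the block changed no call beyond those given beside the results. Of the member values recomputed, 0 that passed in either fit changed direction. The highest-mean position, members with an intron only, and the filter applied before the longest span (added after seeing the data) kept the counts within 1.5 times. Ischemic libraries are the shallowest, which limits RPS21 and EIF1B. EIF4EBP1 is limited by few reads in every zone, the healthy and border zone libraries included.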
